A study of Arabidopsis thaliana with 9 samples.

Results

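AT5G52050 and XERICO are Arabidopsis genes tied to the level of abscisate, the stress hormone that closes stomata and slows growth when water is short. Each is measured by 1 probe set whose annotation lists exactly 1 gene (248392_at for AT5G52050 and 263325_at for XERICO), so the pair makes up 2 of the 13513 probe sets with 1 gene and 2 of the 22746 probe sets tested. They were chosen with the results of these arrays in view, for opposite changes across control, dark and high light. Their own values are therefore a description, and no p-value is given for them. In the gene table AT5G52050 lies on chromosome 5 and XERICO on chromosome 2.

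Cells hold abscisate at the balance of its synthesis, its breakdown or coupling to glucose, and its movement across membranes. AT5G52050, also called DTX50, encodes a transporter of the MATE family (multidrug and toxic compound extrusion) and is known to carry abscisate out of cells. XERICO encodes a small RING-H2 zinc finger protein of the kind found in ubiquitin ligases. Plants that overexpress it hold more abscisate and tolerate drought better, and gibberellin represses the gene while the DELLA repressors of gibberellin responses induce it.

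Total RNA of an Arabidopsis thaliana cell suspension culture was hybridised to 9 ATH1 arrays, 3 per group. On day 9 of growth, control cells were at 50 microE/m2/s, the light in which all the cultures had been grown without a night, dark cells had 1 h without light, and high light cells had 30 min at 1800 microE/m2/s. The labels name no cell line, mutation or transgene. The values are log2 signals per probe set after RMA, a method that removes background, evens out the probe intensities between arrays and combines the probes for each transcript. The replicates are called biological, with nothing on whether they were separate cultures, so the spread between arrays may be partly technical.

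A suspension culture has no stomata and no organs. Of 24 marker loci for guard cells, root hairs and root cap, vascular tissue, seeds and leaf mesophyll, 3 had a named probe set. FMA, the guard cell regulator FAMA, had a log2 signal of 4.22 ± 0.00426 in control (SD, n = 3), and the root hair expansin gene EXPA7 had 4.28 ± 0.0699. Both lay near the lower quartiles of the arrays (4.05 to 4.13). RCA, the Rubisco activase of green cells, had 11.00 ± 0.157. None of the 3 was called in any comparison by the limma test described below, and at an unadjusted p under 0.05 EXPA7 alone was higher in high light than in dark, as were 4.48% of all probe sets. The array medians lay between 5.55 and 5.67. High light replicate 1 stood apart from its group, with a first principal component score of 4.32 against 41.5 and 45.4 for replicates 2 and 3, and -28.5 to -0.847 for the control and dark arrays. Replicate 1 also had the lowest score within control (-26.2) and within dark (-28.5). An index of RNA quality, the log2 signal at the 3 prime end less that at the 5 prime end averaged over the control probe sets for GAPDH, ubiquitin and actin, ranged from 1.32 to 1.78 in control, 1.44 to 2.01 in dark and 1.62 to 1.81 in high light. Replicate 3 had the highest index in every group. Replicate 1 had the lowest in control and dark, and replicate 2 the lowest in high light. The part of this index in the results was not tested.

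The transporter gene was low in control and dark cells and high in high light. The log2 signal of AT5G52050 was 5.17, 5.51 and 4.79 on control replicates 1, 2 and 3. It was 5.08, 4.67 and 4.81 on the dark arrays and 9.13, 10.23 and 9.86 on the high light arrays. The control and dark arrays overlapped, and all 6 lay below the array medians. All high light arrays lay far above them, with a gap of 3.62 between the lowest high light array and the highest of the other 6, which themselves spanned 0.846. For scale, 555 of all 22746 probe sets (2.44%) had their 3 high light arrays above the 6 others. Since the gene was chosen for this, nothing is read from that share.

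XERICO was well expressed in every culture and lower in high light. Its log2 signal was 9.24, 9.01 and 9.10 on control replicates 1, 2 and 3, and 8.95, 9.22 and 8.97 on the dark arrays. On the high light arrays it was 8.38, 8.03 and 7.78. Here too control and dark overlapped, within a range of 0.291, and the 3 high light arrays were the lowest. The gap was narrower than for the transporter gene, at 0.571 between the highest high light array and the lowest of the others. Across the table, 505 probe sets (2.22%) had their high light arrays below the 6 others. In these bulk cultures, fewer cells that express XERICO and less of its RNA per cell cannot be told apart.

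**Figure D1:**
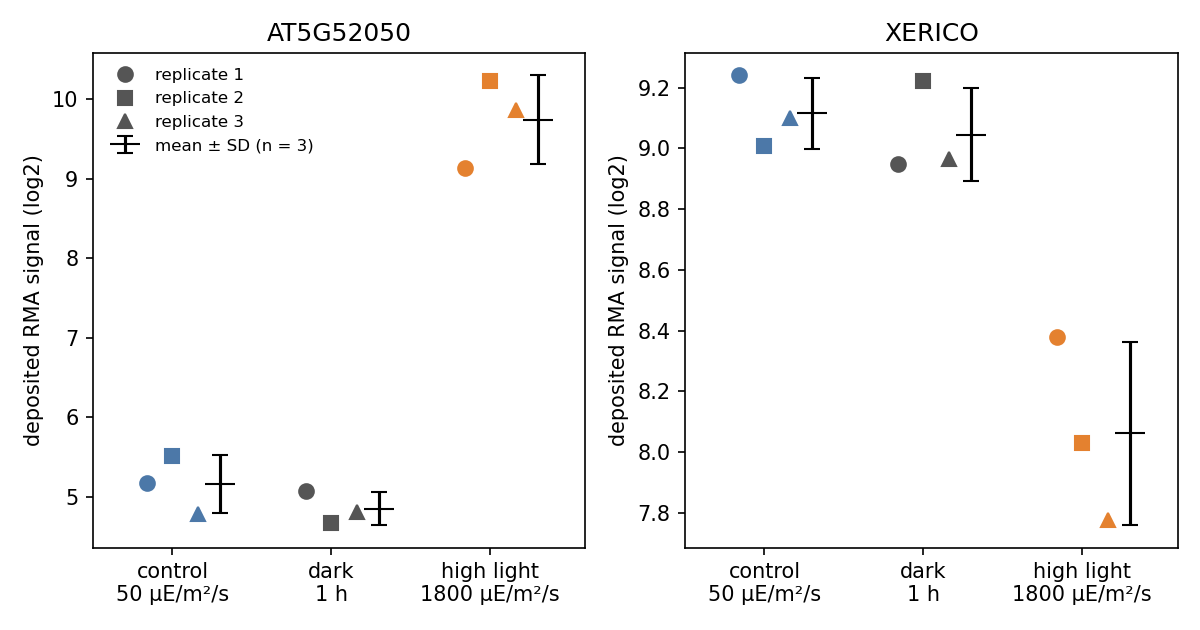
Deposited log2 signal (vertical axis) of AT5G52050 and XERICO on each of 9 arrays, by group; symbols mark the replicate number, and bars give the mean ± SD (n = 3). The high light arrays of AT5G52050 (9.13 to 10.23) lie above, and those of XERICO (7.78 to 8.38) below, all control and dark arrays; the vertical axes differ and do not start at 0.

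In group means, AT5G52050 went from 5.15 ± 0.363 in control to 9.74 ± 0.557 in high light (SD, n = 3). The log2 change of 4.58 (SE 0.281) is a fold of 24.0. It was the 4th highest change of the 22746 probe sets. Against the dark mean of 4.85 ± 0.208 the log2 change was 4.89 (SE 0.281), a fold of 29.7 and the 5th highest. Probe sets were not tested against background.

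XERICO went from 9.12 ± 0.117 in control to 8.06 ± 0.302 in high light (SD, n = 3), a log2 change of -1.05 (SE 0.153) to 0.482 of the control level. Against the dark mean of 9.05 ± 0.152 it was -0.98 (SE 0.153), to 0.506 of the dark level. These ranked 41st and 19th from the lowest of all probe sets.

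**Figure D2:**
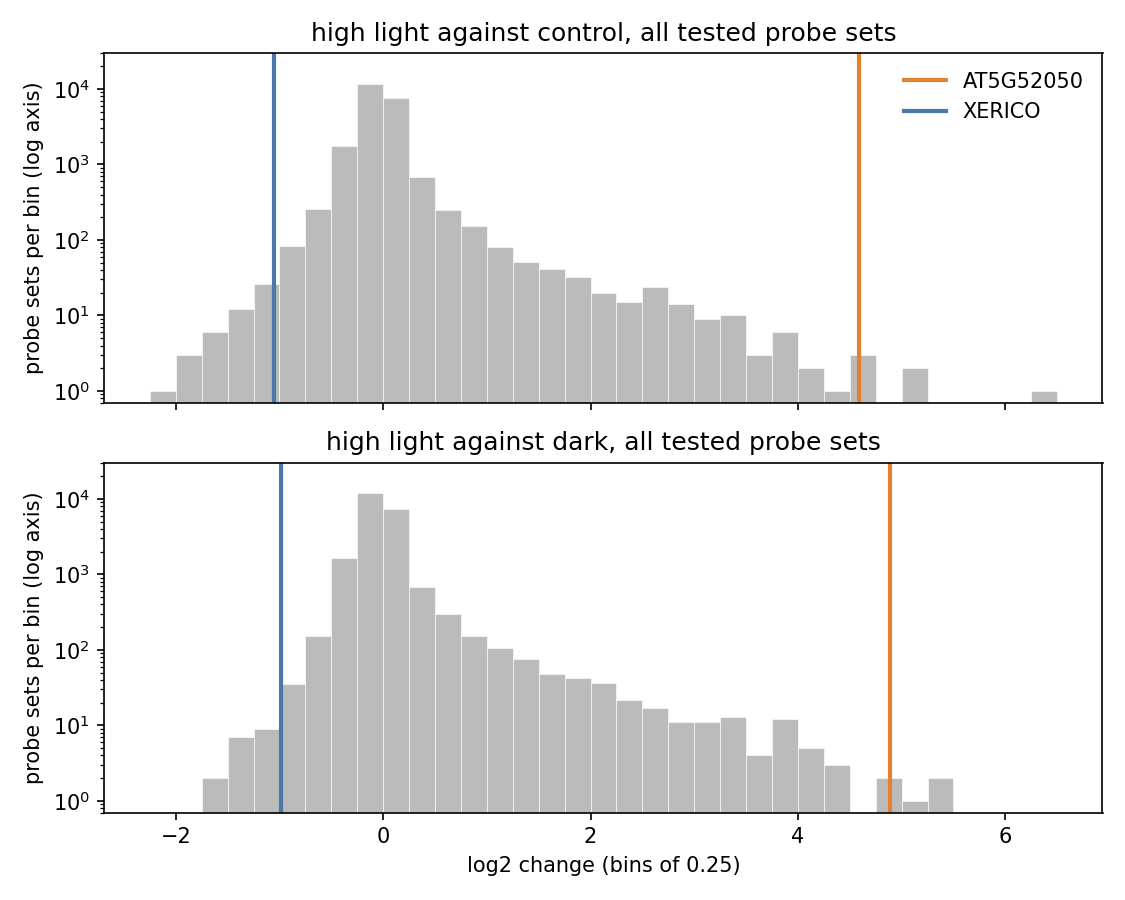
Number of probe sets (log axis) in bins of 0.25 of the log2 change, for high light against control (top) and high light against dark (bottom), over all 22746 tested; lines mark both genes. AT5G52050 lies at 4.58 and 4.89, in the thin right tail, and XERICO at -1.05 and -0.98 in the left tail, which is the shorter.

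Darkness for 1 h shifted both genes by less than the SD of the control arrays. For AT5G52050 dark minus control was -0.31 (SE 0.281) and for XERICO -0.07 (SE 0.153). In order of level, AT5G52050 was highest in high light, then control, then dark, and XERICO was highest in control, then dark, then high light. Control and dark are neighbours in both orders and did not differ beyond their spread. The sign of the XERICO difference between them turned with array weights (0.03).

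Same-numbered arrays of high light and control deviate together across all probe sets, so the differences by replicate number are given too. For AT5G52050, high light minus control was 3.97, 4.71 and 5.07 in replicates 1, 2 and 3. For XERICO it was -0.86, -0.98 and -1.32. Replicate 1 had the smallest difference, and replicate 3 the largest, for both genes. Pairing by number is less clear for the dark arrays. Against dark, AT5G52050 differed by 4.06, 5.56 and 5.05, and XERICO by -0.57, -1.19 and -1.19, again with the smallest in replicate 1. Dark minus control had no common sign: -0.09, -0.85 and 0.02 for AT5G52050, and -0.29, 0.21 and -0.13 for XERICO.

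**Figure D3:**
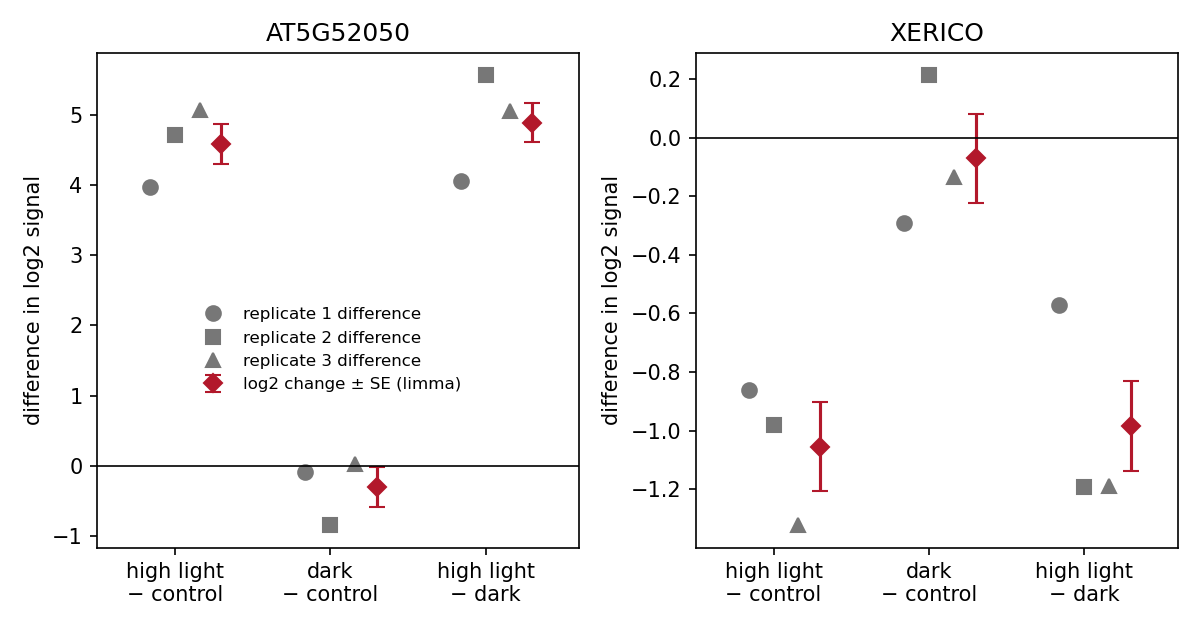
Difference in log2 signal (vertical axis) between same-numbered arrays of each pair of groups (grey symbols), with the fitted log2 change ± SE (red), for AT5G52050 and XERICO. All differences of high light from control or dark are above 0 for AT5G52050 (3.97 to 5.56) and below 0 for XERICO (-1.32 to -0.57), while dark minus control falls on both sides of 0.

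High light replicate 1, the array that stood apart, was the closest of its group to the other cultures in both genes. The same held for 83 of the 100 probe sets that limma called higher in high light than in control, and for 8 of the 14 called lower. Against dark it held for 176 of 201 called higher and 3 of 3 called lower. These sets were called from the same arrays and the share over all probe sets is not given, so nothing is read from the counts. Without high light replicate 1, high light minus control was 4.89 for AT5G52050 and -1.21 for XERICO, and high light minus dark was 5.19 and -1.14. Within high light the 3 arrays of AT5G52050 had a larger SD than 97.5% of all probe sets, and those of XERICO a larger SD than 87.5%. In control these shares were 91.8% and 46.5%.

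The rest of the abscisate pathway was thinly named in the annotation used, in which 8730 of the 22746 probe sets have no gene and 503 have several. Of 101 loci in 9 lists (synthesis, breakdown and coupling, transport, receptors, PP2C phosphatases, SnRK2 kinases, transcription factors, response genes and ubiquitin ligases), 10 had a named probe set. For synthesis, transport, receptors, phosphatases, kinases and transcription factors, 0 members had a probe set named for that gene alone, so those steps were not analysed here, whether or not the arrays carry probes for them. Below, measured means having such a probe set. A gene was called at an adjusted p under 0.05 in limma with Benjamini-Hochberg adjustment over all 22746 probe sets. By that rule 2 of the 10 rose and 0 fell in high light against control, where 0.44% of all probe sets were called higher and 0.0615% lower. Against dark again 2 rose and 0 fell (0.884% higher and 0.0132% lower over all). The comparisons share the high light arrays. The lists were chosen with earlier results of these arrays known. No enrichment is therefore read from these counts, and the p-values of listed genes are no independent support. In dark against control limma called 0 of the 10 and 0 of all probe sets (0%), and at an unadjusted p under 0.05 there were 0 higher and 1 lower of the 10, against 0.994% and 1.77% of all probe sets. The median log2 change of the 10 was 0.00 in high light against control, beside -0.03 over all probe sets.

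Both genes that rose encode ubiquitin ligases. PUB22 and PUB23 are U-box ligases that dampen drought and immune responses and are known to act on abscisate receptors. PUB22 had signals of 4.52, 4.83 and 4.71 in control, 4.64, 4.50 and 4.83 in dark, and 7.33, 9.38 and 9.18 in high light. High light replicate 1 was again nearest to the other groups, which it did not overlap. In 2.44% of all probe sets the high light arrays lay above the 6 others. PUB22 rose by 3.94 on the log2 scale (SE 0.460, limma adjusted p = 0.00817) against control and by 3.98 (SE 0.460, adjusted p = 0.0054) against dark.

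PUB23 had signals of 7.84, 9.004 and 8.68 in control, 7.90, 8.42 and 7.72 in dark, and 10.12, 11.28 and 11.03 in high light. Its control arrays reached higher than its dark arrays, and all high light arrays lay above both, as in 2.44% of all probe sets. It rose by 2.301 (SE 0.371, limma adjusted p = 0.0425) against control and by 2.797 (SE 0.371, adjusted p = 0.0117) against dark. Without high light replicate 1 both genes were still called against control, PUB22 with an adjusted p of 9.52e-06 and PUB23 with 0.00802. The PUB23 call against control was lost when any array other than high light replicate 1 was left out (adjusted p 0.0563 to 0.236), and with only the 6 arrays of both groups (0.122). Against dark, leaving out dark replicate 1 ended the call at an adjusted p of 0.0642. Leaving out replicate 2 of high light ended it at 0.0723, and leaving out replicate 3 at 0.0817. PUB19, a related U-box ligase that dampens abscisate responses, had a log2 change of 0.10 (SE 0.180, adjusted p = 0.938) against control.

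Genes that couple abscisate to glucose or free it again gave no call. Of 4 measured members, 0 were called and 0 had an unadjusted p under 0.05 in limma in any comparison. Over all probe sets, 8.79% had such a p between high light and control, 2.77% between dark and control and 8.01% between high light and dark. UGT71C5, a glucosyltransferase that makes the glucose ester of abscisate, had a log2 change of 0.36 (SE 0.176) in high light against control. UGT71B8, a related enzyme gene, had -0.06 (SE 0.078), at a control signal of 4.26 near the lower quartiles of the arrays. UGT71B6 and BGLU33, a glucosidase that releases abscisate from the ester, had -0.06 (SE 0.0844) and 0.06 (SE 0.0605), at signals of 3.95 and 3.56 in control that lie below the lower quartile of every array. The median of the 4 was 0.00.

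Among genes induced by abscisate and cold, 3 of 20 were measured and 0 were called in any comparison. With 3 genes that count says little, because calls were rare on these arrays as a whole. They made up 0.501% of the 22746 probe sets for high light with control. For high light with dark the share was 0.897%, and for dark with control 0%. LTI30, a dehydrin that protects membranes in drying cells, had signals of 10.23, 11.21 and 11.46 in control. It had 9.91, 9.57 and 9.70 in dark and 10.44, 10.72 and 10.53 in high light. The dark arrays were the lowest and did not overlap the others, as in 3.45% of all probe sets for dark below control and 4.99% for high light above dark. Control replicate 1 lay apart from the other control arrays. Dark minus control was -1.25 (SE 0.277, unadjusted p = 0.00171, limma adjusted p = 1), and high light minus dark was 0.84 (SE 0.277, adjusted p = 0.406). The latter had an adjusted p of 0.0314 without control replicate 1, as the 1 alternative in which it was called. COR47, another dehydrin gene, had log2 changes of -0.28 (SE 0.539) in high light and -0.66 (SE 0.539) in dark against control. COR15A, which encodes a protectant of chloroplast membranes, had -0.20 (SE 0.309) in both to 2 decimals.

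**Figure D4:**
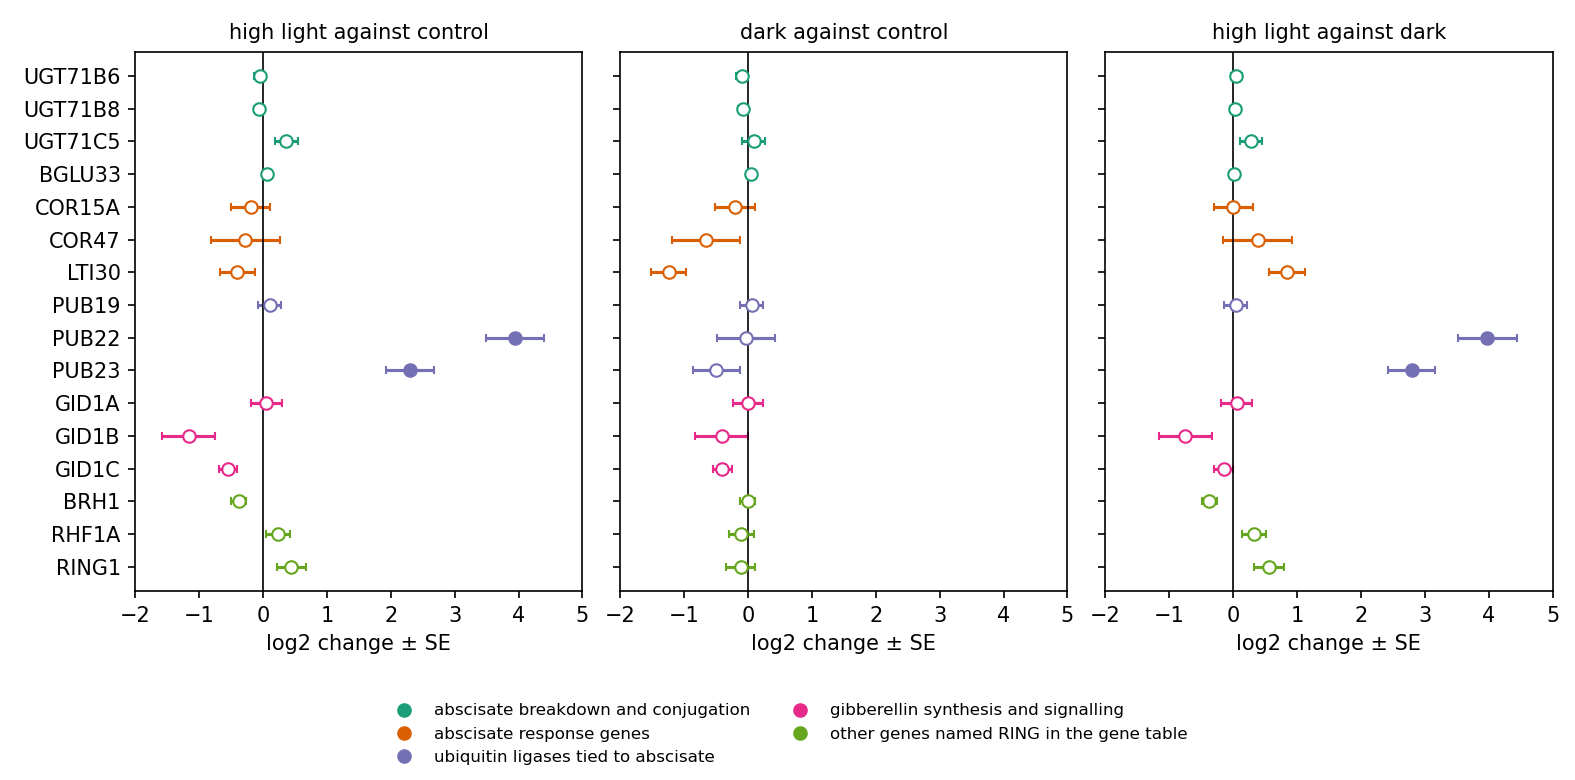
Log2 change ± SE (horizontal axis) of the measured genes of the abscisate, gibberellin and RING-named lists in the 3 comparisons; colours mark the lists, and filled points mark genes called by limma at an adjusted p under 0.05. PUB22 and PUB23 are the filled points, in both comparisons of high light; dark against control has none.

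Gibberellin, the hormone that represses XERICO, was represented by 3 of 21 listed genes, all of them receptors, and 0 were called. This too says little, as calls in high light reached 0.501% of all probe sets against control and 0.897% against dark. Dark against control had 0%. GID1B had signals of 9.07, 8.19 and 8.58 in control, 8.81, 8.44 and 7.34 in dark, and 7.98, 7.46 and 6.89 in high light. Its high light arrays lay below the control arrays, as in 6.85% of all probe sets, and overlapped the dark arrays. High light minus control was -1.17 (SE 0.414, limma adjusted p = 0.433), a size near that of XERICO with a larger error. GID1C had -0.55 (SE 0.145, adjusted p = 0.231) and GID1A 0.05 (SE 0.240). At an unadjusted p under 0.05, 2 of the 3 were lower in high light than in control, against 4.92% of all probe sets. At that p, 1 was lower in dark than in control (1.77% of all) and 0 were lower in high light than in dark (3.52%).

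XERICO is a RING-H2 protein, and 3 of 21 other genes named RING in the gene table were measured, a list made after that table was seen. BRH1, a RING-H2 gene that responds to brassinosteroid, had signals of 5.36, 5.45 and 5.55 in control, 5.39, 5.55 and 5.39 in dark, and 5.18, 4.81 and 5.23 in high light. All its high light arrays were below the other 6, by a small margin, as in 2.22% of all probe sets. High light minus control was -0.38 (SE 0.119, limma adjusted p = 0.347). RING1 and RHF1A had 0.44 (SE 0.230) and 0.23 (SE 0.189). Limma called 0 of the 3 in any comparison, beside 0.44% of all probe sets called higher and 0.0615% called lower against control. At an unadjusted p under 0.05 in limma, BRH1 was lower in high light than in control or dark, and RING1 was higher than in dark. Over all probe sets these shares were 4.92% lower than in control, 3.52% lower than in dark and 4.48% higher than in dark.

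The genes whose pattern was most like each of the pair were found among 13349 genes with a probe set of their own. Likeness was the root mean square difference over the 9 arrays, after each gene's mean was subtracted. These genes were picked by their values, and no test is made of their likeness. PUB22 is also in the ubiquitin ligase list, which was chosen with earlier results of these arrays known. AT5G52020 is also a chromosomal neighbour of AT5G52050. Their limma calls are given under those headings alone and are no independent support. Nearest to AT5G52050, whose own pattern has a root mean square of 2.26, were AT4G27654 (difference 0.35), AT3G02840 (0.417), AT5G52020 (0.418), PUB22 (0.516) and AT2G22880 (0.606). Their high light minus control log2 changes ran from 3.35 for AT2G22880 to 4.11 for AT4G27654, below the 4.58 of AT5G52050. In all 5, high light replicate 1 was the lowest high light array.

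Nearest to XERICO, with a root mean square of 0.51, were AT4G17080 (difference 0.155), AT3G15720 (0.176), AT1G32700 (0.192), AT1G27690 (0.201) and AT1G52800 (0.23). The gene table gives them no functional name. Their high light minus control log2 changes lay between -1.01 for AT1G32700 and -0.87 for AT3G15720. In high light replicate 1, XERICO and all 5 lay below every control and dark array. The distance to the lowest of those was 0.571 for XERICO, 0.35 for AT4G17080, 0.258 for AT1G27690, 0.172 for AT1G32700, 0.102 for AT1G52800 and 0.0988 for AT3G15720. XERICO also had a smaller SD in high light (0.302) than each of the 5 (0.377 to 0.553). XERICO was chosen for its change and the 5 for their likeness to it, so nothing is read from these orders. Over all probe sets, 2.22% had their high light arrays below the 6 others.

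**Figure D5:**
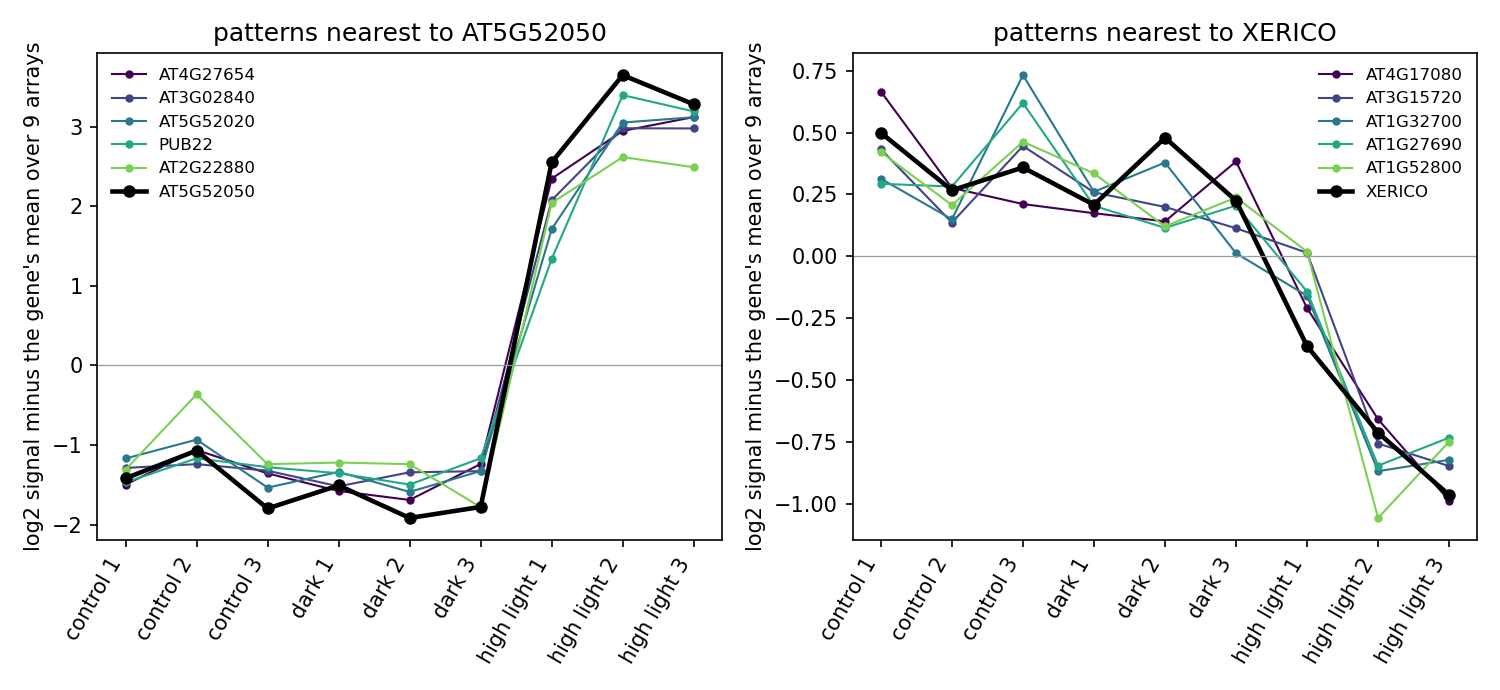
Log2 signal minus the gene's mean over 9 arrays (vertical axis), by array, for AT5G52050 (left) and XERICO (right) in black and the 5 genes nearest in pattern in colour; lines join the points of a gene and imply no order of replicates. High light replicate 1 lies between the other groups and high light replicates 2 and 3 in every gene drawn.

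A near neighbour of AT5G52050 was also higher in high light. Of the 5 loci on either side on chromosome 5, 3 had a named probe set. AT5G52020, an AP2/ERF-type factor gene 4 loci away, had signals of 4.59, 4.83 and 4.22 in control, 4.42, 4.17 and 4.43 in dark, and 7.47, 8.81 and 8.87 in high light. Its control and dark arrays overlapped. Its high light arrays stood above them, as in 2.44% of all probe sets. Its high light minus control log2 change was 3.84 (SE 0.345), and it is also 1 of the 5 nearest patterns. Between them on the chromosome, AT5G52030, 3 loci from AT5G52050, had -0.21 (SE 0.137, limma adjusted p = 0.773). AT5G52010, at 5 loci, had -0.08 (SE 0.112, adjusted p = 0.921). Of the 3 named neighbours, AT5G52020 was the 1 that limma called, higher in both comparisons of high light, where 0.44% (against control) and 0.884% (against dark) of all probe sets were called higher.

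Around XERICO, 4 of 10 loci had a named probe set. Limma called 0 of them in any comparison and 0 had an unadjusted p under 0.05, a count that says little beside the 8.79%, 2.77% and 8.01% of all probe sets with such a p. AT2G04230, 2 loci away, had a log2 change of 0.00 (SE 0.0792) in high light against control. AT2G04220, at 3 loci, had 0.15 (SE 0.0973), and AT2G04280, at 4 loci on the other side, had -0.10 (SE 0.0691). AT2G04210, at 5 loci, had -0.04 (SE 0.0782). All these changes were far smaller than the -1.05 of XERICO.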

How the data were processed

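Total RNA from 9 samples was measured on 9 ATH1 arrays. The deposited values are taken as log2 signals per probe set, for which the submitters' processing notes name RMA and affy; version, settings and log base are not given in the sources used here. The base was taken from the range of the values. Quantile normalisation in RMA hides changes shared by most transcripts, and the number of arrays limits the precision. Of 22810 probe sets, 64 Affymetrix controls were left out. Names came from the platform annotation, which gives 8730 probe sets no gene, 503 more than 1 gene and 13513 exactly 1; 13436 of the last matched the gene table (TAIR10.1), and a gene is represented by its probe set with the highest mean.

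Group means were fitted to all 9 arrays with limma 3.58.1 in R 4.3.3 (lmFit, eBayes, 6 residual and 2.55 prior degrees of freedom) and p-values adjusted by Benjamini-Hochberg per comparison. The fit and the pattern search were tested on simulated data. Same-numbered high light and control arrays deviated together from their group means (correlations 0.261 to 0.515). Whether the arrays are paired by replicate number was not tested, and the main fit has no block for that number. A fit blocked on that number called 302 rather than 114 probe sets in that comparison. In the other comparisons 2 of 3 pairs did.

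The members and the 15 gene lists (146 loci) were chosen with earlier results of these data known. Genes named are the pair, the 5 nearest patterns of each, measured genes among 5 loci on either side, and per list up to 4 called genes or else the 2 with the largest change; COR15A, GID1A, PUB19, UGT71B6, BGLU33 and RHF1A were named beyond that rule to complete their lists. UGT71B7 was left out because the gene table does not pair its name with the listed locus. Promoter motifs and protein relatives were planned and were not analysed here. Alternatives changed scaling, variance model, array weights, block, arrays, filters and threshold.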

Additional observations from a re-analysis of the deposited data

How the results depend on the processing

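The changes of AT5G52050 and XERICO in high light moved by less than the pooled SD within groups under median centring, quantile normalisation, array weights, the replicate block and each array left out. With 1 array left out, high light minus control ran from 4.34 to 4.89 for AT5G52050 and from -1.21 to -0.91 for XERICO, and high light minus dark from 4.65 to 5.19 and from -1.14 to -0.84. Counts of called probe sets depended more on the choices. In high light against control, beside 114 calls, limma made 302 with the replicate block, 387 with array weights and 59 at an adjusted p under 0.01. In high light against dark, beside 204, it made 430 with the block, 642 with array weights, 131 with only the 6 arrays of both groups and 84 at the stricter threshold. In dark against control array weights gave 5 calls instead of 0. With each array left out the counts ran from 43 (without high light replicate 2) to 575 (without high light replicate 1) against control and from 76 to 675 (without the same arrays) against dark. Against control they were 58 without high light replicate 3, 64 without control replicate 1 and 61 without control replicate 3. Against dark they were 84 without high light replicate 3, 90 without dark replicate 1 and 85 without dark replicate 2. The 2 abscisate pathway genes called in each comparison of high light became 1 at the stricter threshold and, against control, 1 with only the 6 arrays of both groups; with an array left out they numbered 1 to 2 against control and 1 to 3 against dark. The replicate block changed no call of a named gene that was tested. Of the 5 genes nearest in pattern, 3 were shared for AT5G52050 and 2 for XERICO when likeness was the Pearson correlation, and 4 to 5 and 3 to 5 with an array left out; for XERICO it was 3 without dark replicate 2 or high light replicate 3. Apart from counts that follow from fewer arrays or a stricter threshold, the cause was not tested. Signal over background could not be read from summarised values.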
